A study of Acropora tenuis with 242 samples.

Results

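In juveniles of the coral Acropora tenuis kept at ambient temperature, 82 of 25349 gene models divided 4 symbiont treatments into a high pair and a low pair. They were chosen by their levels. For each model the mean CPM (counts scaled so that every library has the same total) of treatments C1, D1, SED and SS was taken as log2(mean CPM + 1). The 4 values were sorted, which leaves 3 gaps between neighbours. A model was a member when its highest group mean reached 10 CPM, its middle gap was the largest of the 3, and that gap was at least log2 of 1.5, which is called the threshold below. The rule would have kept at most 100, and 82 met it among 10520 models that reached 10 CPM.

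Reef-building corals live with algae of the family Symbiodiniaceae, which are housed inside cells of the coral's gastrodermis and pass sugars and other photosynthate to the host. Many Acropora species release eggs without algae, so that each generation takes its symbionts up from the surrounding water and sediment. Algal types differ in how much they supply to the host and in how well the partnership withstands warm water. Uptake and upkeep of algae are known to involve recognition of sugars on the algal surface, sterol and ammonium transport, and control of host immunity.

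Parents came from 5 Great Barrier Reef populations, written BK, CU, DR, LS and SB in the labels, and were crossed within or between them, as in CUxCU or CUxDR. Each library was made by tag-based RNA-seq, which reads 1 short stretch per transcript, and holds a count for every gene model. Juveniles of 10 crosses came from 4 symbiont uptake treatments, known here by their label codes alone. C1 and D1 are customary names of algal types in the genera Cladocopium and Durusdinium, but whether the sampled juveniles held algae is not given. At Ambient, the control temperature, there were 29 C1, 32 D1, 28 SED and 30 SS libraries. The heated treatment, Hot, was represented by 6 libraries of D1, 15 of SED and 6 of SS, with 0 for C1. Larvae without a symbiont treatment came from 11 crosses as 33 libraries taken before the exposure (Pre), 33 at Ambient and 30 at Hot. Larval libraries were pools of larvae, and neither the number of juveniles in a library nor the temperatures in degrees are stated. Gene models carry Amillepora identifiers with no gene name beside them in the files, so that no function, cell type marker or sequence is given here for any member.

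Total counts ran from 158481 to 962906 in juvenile libraries and from 79712 to 1102351 in larval libraries. At these depths many members were counted in few reads: the median count of a member over the Ambient juvenile libraries ran from 0 to 152, with a median of 6, and 38 members had a median under 5. Column names carry an index number, whose meaning is not given, and it was not spread evenly over the groups. Counted from the mean of the cross within the early numbers, C1 libraries lay at -14.6 ± 7.13 (SD, n = 29), SS at -1.73 ± 5.52 (n = 30), D1 at 1.47 ± 6.78 (n = 30) and SED at 15.4 ± 6.02 (n = 28). Of the 27 Hot libraries 23 had late numbers, and of the Ambient libraries only 2 did, both of them D1. The values of these libraries are given beside the results they touch. In whole animals, a lower level can mean fewer cells of a type or less RNA per cell, and these cannot be told apart.

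Members of every possible pair were found, in unequal numbers. Treatments SED and SS were the high pair in 28 members and C1 and D1 in 14, which are the opposite sides of the same split. C1 and SS were high in 22, and D1 and SED, its counterpart, in 4. C1 and SED were high in 12, and D1 and SS in 2. The gap had a median of 0.83 among the SED and SS members (0.60 to 2.13), 0.71 among C1 and D1 members (0.60 to 1.26), 0.73 among C1 and SS members (0.60 to 2.82) and 0.79 among C1 and SED members (0.63 to 1.02), all on the log2 scale. These values chose the members, so they are a description and no test was made on them. Just inside the threshold was Amillepora21929-RA, at 29.8 CPM in C1, 19.3 in D1, 15.3 in SED and 29.9 in SS, with a gap of 0.598. Just outside it was Amillepora27310-RA, at 19.7, 19.6, 12.7 and 11.6 CPM in the same order, with a gap of 0.583.

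**Figure D1:**
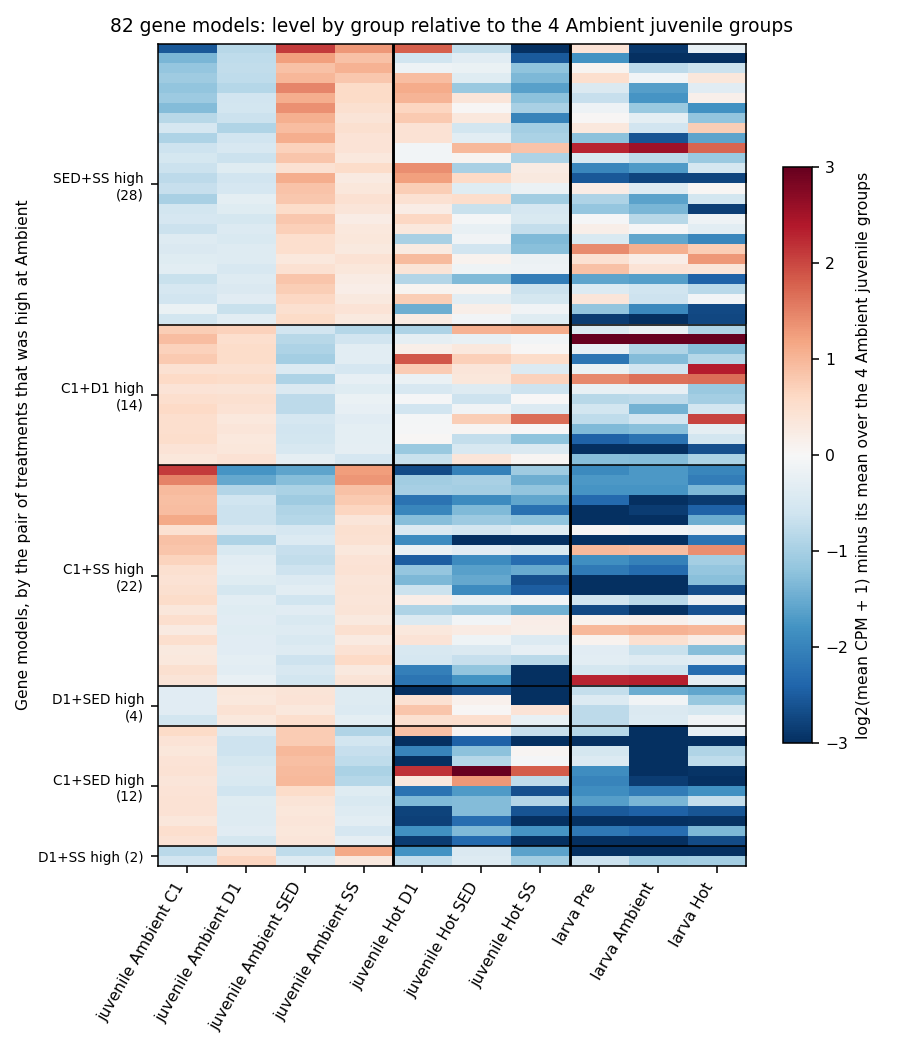
Levels of the 82 gene models (rows, grouped by the pair of treatments that was high at Ambient) in the 10 groups (columns), as log2(mean CPM + 1) minus its mean over the 4 Ambient juvenile groups, with red for higher and blue for lower. In the SED+SS block Hot D1 is above Hot SED and Hot SS in 22 of 28 rows, and most rows of the C1+SS and C1+SED blocks are blue at Hot and in larvae.

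Among the SED and SS members the treatments kept a common order. Mean levels ran C1, D1, SS, SED from low to high in 19 of the 28, and SED was the highest treatment in 25. The widest gap was that of Amillepora07197-RA. Its libraries held 2.92 to 53.5 CPM (median 24.7) in C1, 0 to 672 (median 42.2) in D1, 39.5 to 1687 (median 590) in SED and 193 to 1110.4 (median 346) in SS. Every SS library therefore lay above every C1 library, whereas D1 and SED spread over a wide range and overlapped. Group means were 26.6 ± 12.4 CPM (SD, n = 29) in C1, 88.7 ± 128.1 (n = 32) in D1, 684 ± 562 (n = 28) in SED and 392 ± 185.2 (n = 30) in SS. Amillepora15326-RA had the next gap of this pattern, with means of 18.7 ± 26.3 CPM in C1, 28.7 ± 39.5 in D1, 118.6 ± 80.1 in SED and 92.6 ± 70.9 in SS, in the same libraries. Its ranges overlapped in all 4 treatments, from 0 to 135 CPM in C1 and from 3.87 to 233 CPM in SS.

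The C1 and D1 members mirrored that order, since SED, SS, D1, C1 from low to high was found in 11 of 14. Amillepora06399-RA had the widest gap and was the member with the highest median count. It held 431 to 981 CPM (median 659) in C1, 149 to 1164 (median 679) in D1, 103 to 593 (median 231.1) in SED and 107 to 483 (median 198) in SS. The means were 660 ± 119.5 CPM (SD, n = 29) in C1, 646 ± 250 (n = 32) in D1, 268.4 ± 160.1 (n = 28) in SED and 220.2 ± 89.7 (n = 30) in SS. Amillepora20315-RA, next in this pattern, was far lower, at 31.4 ± 24.6 CPM in C1, 23.2 ± 28.5 in D1, 8.62 ± 7.67 in SED and 10.5 ± 8.01 in SS.

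The C1 and SS members included the widest gaps of all, in a pair of models close to absent from the other treatments. Amillepora07069-RA held 6.01 to 80.9 CPM (median 36.6) in C1 and 0 to 63.8 (median 17.0) in SS, against at most 8.21 in D1 and 12.1 in SED. It was at 0 in 19 of 32 D1 and 16 of 28 SED libraries, and in 2 of 30 SS libraries. Amillepora29940-RA had means of 14.2 ± 8.01 CPM in C1 and 12.5 ± 7.62 in SS, against 0.886 ± 1.69 in D1 and 1.25 ± 2.16 in SED. It was at 0 in 23 D1 and 20 SED libraries but in 1 library each of C1 and SS.

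In the smaller patterns group means and medians often differed. Amillepora07249-RA, with the widest gap of the C1 and SED members, had means of 21.6 ± 38.5 CPM in C1 and 24.7 ± 45.2 in SED against medians of 5.49 and 4.46, and 14 of 28 SED libraries were at 0. Amillepora08798-RA, next in that pattern, had means of 26.9 ± 29.4 CPM in C1 and 34.3 ± 55.3 in SED with medians of 22.9 and 4.71. In Amillepora09004-RA, of the D1 and SED members, the D1 and SED means were 17.0 ± 60.8 and 17.9 ± 60.7 CPM, yet their medians were 0.895 and 0. Amillepora28140-RA, of the same pattern, had medians of 2.92, 3.30, 4.52 and 4.22 CPM in C1, D1, SED and SS. Amillepora25026-RA, of the D1 and SS members, had means of 136 ± 375 and 218 ± 383 CPM in those treatments but medians of 29.4 and 35.5, below the SED median of 47.9. Amillepora31886-RA, the other model of that pair, had both medians of the high pair above those of the low pair, at 4.30, 9.44, 1.17 and 8.25 CPM in C1, D1, SED and SS. Over all 82 members, the gap between group medians had the direction of the split in 70 and reached the threshold in 54. Without each member's own highest library, 62 still had a gap of at least the threshold.

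The crosses shared the split to different degrees. Both treatments of the high pair lay above both of the low pair in a median of 7 of the 10 crosses, in at least 8 crosses for 40 members and in all 10 for 22. For 9 members that held in at most 2 crosses. By pattern the median was 10 crosses for the SED and SS members, 7.5 for C1 and SS, 6 for C1 and D1, 4.5 for C1 and SED, and 4 for each of the other patterns. The difference of pair means, high minus low in mean log2(CPM + 1), had the same sign in all crosses for 25 of 28 SED and SS members, 12 of 22 C1 and SS members, 7 of 14 C1 and D1 members and 1 of 12 C1 and SED members. For Amillepora07197-RA it ran from 2.69 in CUxDR to 4.74 in BKxBK, for Amillepora06399-RA from 1.09 in CUxDR to 1.77 in CUxSB, and for Amillepora07069-RA from 2.42 in DRxCU to 4.45 in SBxSB. Amillepora08798-RA instead ran from -1.26 in DRxDR to 4.91 in CUxDR, and Amillepora09004-RA was on the side of its split in 3 of 10 crosses.

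**Figure D2:**
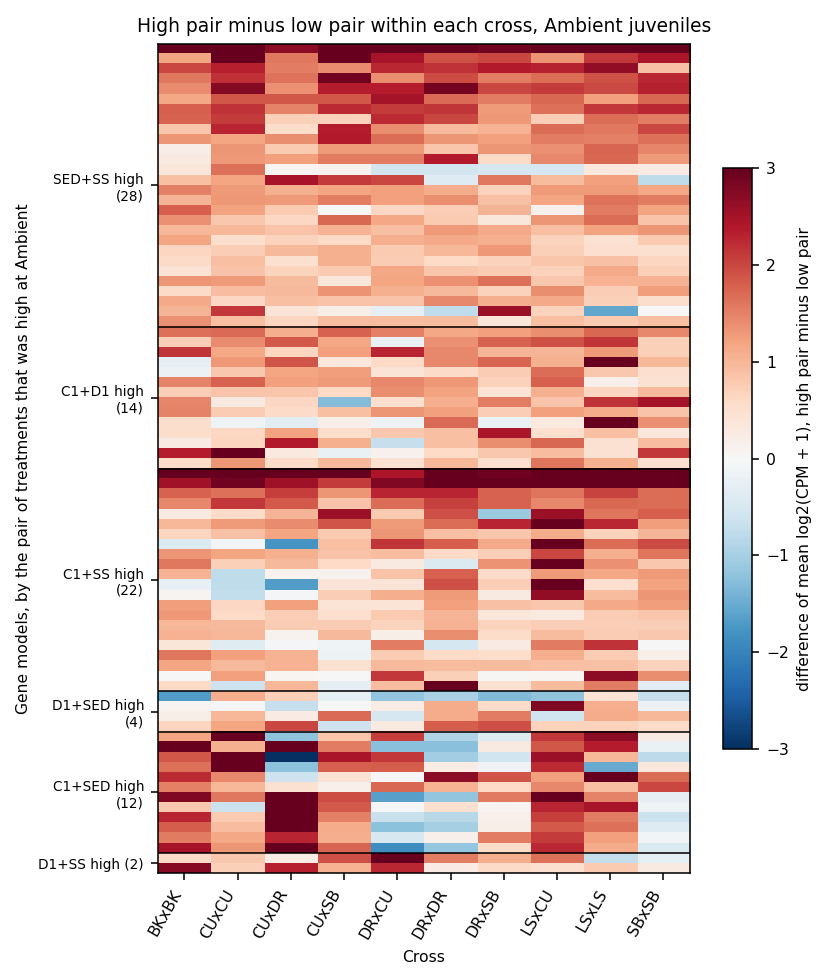
Difference between the high and the low pair in mean log2(CPM + 1) within each of the 10 crosses (columns) for the 82 gene models (rows, grouped by high pair), Ambient juveniles. Red stands for the direction of the split and blue for the opposite, and 25 of the 28 SED+SS rows are red in every cross against 1 of the 12 C1+SED rows.

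Levels were also compared between crosses, in the same Ambient libraries that chose the members. A model lifted by a few crosses could enter the list through those values, so the counts are a description of the members. With symbiont treatment as a term, 26.8% of the 8954 models tested differed between crosses at a false discovery rate of 0.05 (edgeR's quasi-likelihood F-test, Benjamini-Hochberg adjustment). Of the 71 members that passed the low-count filter 25 were called. They included 8 of 12 C1 and SED members, 7 of 18 C1 and SS members and 4 of 26 SED and SS members. The smallest p among members belonged to Amillepora30292-RA of the SED and SS pattern. It held 71.3 to 286.9 CPM in the treatment means of CUxCU and 61.6 to 97.4 in those of SBxSB, but at most 7.91 in those of the other crosses. The next was Amillepora28140-RA, with treatment means of 27.3 to 78.2 CPM in DRxDR, 24.6 to 37.4 in CUxCU and at most 0.984 in BKxBK. A difference in the treatment effect between crosses was called for 0 of the 81 members tested, and for 0% of the 10621 models, by edgeR. At an unadjusted p under 0.05 there were 18 members, and DESeq2 called 1. With no low-count filter edgeR called many members, as counted in the last section. The 0 thus depended on the filter and does not show that the treatment effect was the same in all crosses.

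Within a treatment and cross, levels of some members followed the index number of the library. The library of a cross with the highest early number was compared with that of the lowest. In SED, the same direction in all 10 crosses was found for 0.827% of the 10520 models that reached 10 CPM and for 9 of the 82 members, 7 of them SED and SS members that were lower at the higher number. Amillepora07197-RA was lower at each higher number in every cross: in the 8 crosses with 3 SED libraries these held 999.6 to 1687 CPM, then 190.4 to 776, then 39.5 to 261.5. Amillepora06399-RA was higher at each higher number, at 103 to 148 CPM, then 164 to 258.4, then 399.99 to 593. The 3 sets of Amillepora06399-RA did not overlap, whereas in Amillepora07197-RA the second and the third did across crosses. The wide range of the SED libraries in both models was thus also found among libraries of 1 cross. In C1 the share was 3.26% of all models and 7 members, all of the SED and SS pattern and lower at the higher number, among them Amillepora15326-RA. In D1 it was 0.133% and 0 members, and in SS 0.219% and 1 member. These Ambient libraries are among those that chose the members, and a model lifted by a few of them could enter the list through those values. The member counts are therefore a description, and no excess over all models is read from them. What the number stands for is not given.

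The split itself was described again with that number taken into account. With the lowest-numbered library of each cross and treatment alone, 42 of the 82 members met the rule with the same high pair, 22 of the 28 SED and SS members among them. With the highest-numbered libraries alone 30 did, of which 5 were SED and SS members and 15 were C1 and SS members. In an edgeR fit of the early-numbered Ambient libraries with cross as a term, the number was added as a covariate. These libraries chose the members by the same gap, so a gap that remained is no support for the split. Of the 82 members 71 could be fitted both with and without the number. The median fitted gap was then 0.84 in place of 0.82 over 26 of 28 SED and SS members, and 0.73 in place of 0.72 over 12 of 14 C1 and D1 members. It was 0.64 with and without the number over 18 of 22 C1 and SS members. For the 12 C1 and SED members, all fitted, it was 0.14 in place of 0.87, and 3 reached the threshold in place of 11. C1 and SED lie at opposite ends of the number, so a term of either sign lowers 1 of them. The gap starts from the lower of the high pair, so a drop in this pattern is largely built in. It is not read as a difference from the other patterns.

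**Figure D3:**
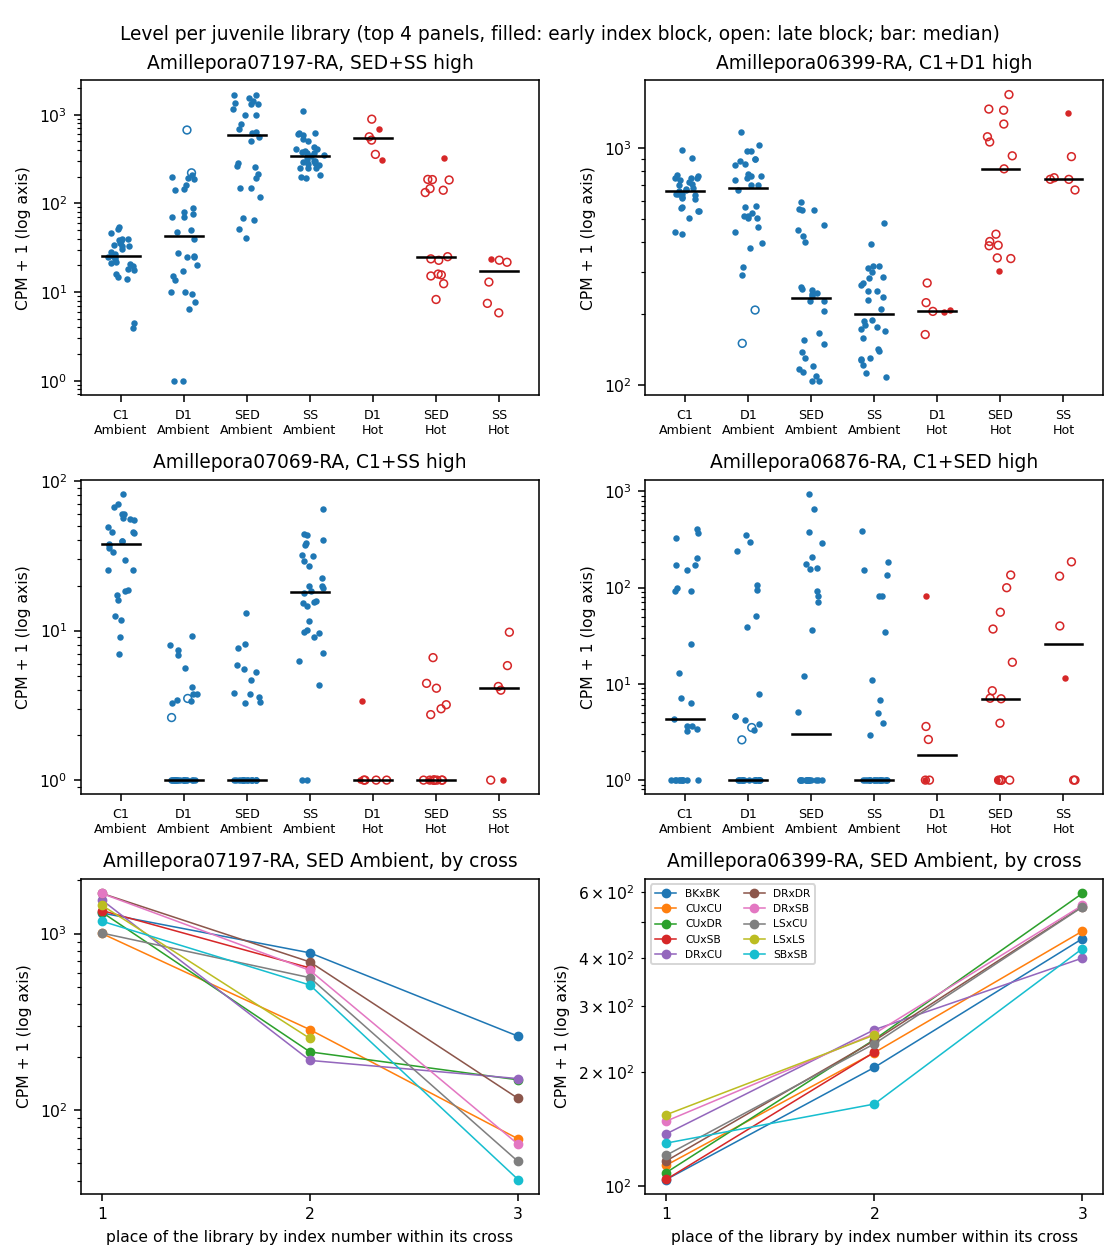
Levels per juvenile library (CPM + 1, log axes). The top 4 panels show 4 models by treatment and temperature, with blue for Ambient, red for Hot, filled points for early and open points for late index numbers, and bars for medians. The bottom panels show SED libraries at Ambient by their place in the order of index numbers, with 1 line per cross, running down for Amillepora07197-RA and up for Amillepora06399-RA in all 10.

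At Hot, where C1 was not sampled, D1, SED and SS libraries were not used by the rule and were tested with cross as a term. Over the 28 SED and SS members the median of the mean level was 26.9 CPM in D1, 65.4 in SED and 47.3 in SS at Ambient, and 49.7, 36.2 and 19.7 CPM at Hot. Mean levels of D1 lay above both of the others in 22 of 28 members at Hot. At Ambient the rule itself places D1 below both in every one of them. In the crosses with all 3 treatments at Hot it was 18 of 28 in SBxSB, from 2 libraries of each treatment. In DRxSB it was 20 of 28, from 1 D1 library and 2 each of SED and SS. The members share these libraries and are not replicates, and the share among all models was not counted.

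Between SED and D1 at Hot, 1.88% of the 9314 models tested were called (edgeR's quasi-likelihood test, false discovery rate 0.05), 0.472% higher in SED and 1.41% lower. Of the members, 60 passed the low-count filter and 11 were called, 3 higher and 8 lower. Among the 25 SED and SS members tested, 7 were lower in SED than in D1, against their order at Ambient, and 1 was higher. Amillepora07197-RA held 310.4 to 890.3 CPM (median 539) in the 6 D1 libraries at Hot and 7.25 to 322 (median 24.1) in the 15 SED libraries. Only 1 SED library, of SBxSB with an early index number, exceeded the lowest D1 library. The log2 fold change, SED minus D1, was -2.30 (SE 0.52), with an adjusted p of 0.0156. Amillepora14734-RA, also of this pattern, fell by 2.12 on the log2 scale (SE 0.51, adjusted p = 0.0252), from 34.5 ± 20.3 CPM (n = 6) in D1 to 6.56 ± 6.90 (n = 15) in SED, with overlapping ranges.

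Amillepora06399-RA turned the other way. At Hot it held 162 to 268.5 CPM (median 205) in D1, 303 to 1678 (median 815) in SED and 664 to 1404 (median 742) in SS. All SED and SS libraries thus lay above all D1 libraries, whereas D1 had been in the high pair at Ambient. SED exceeded D1 by 1.89 on the log2 scale (SE 0.35, edgeR adjusted p = 0.00264). Of the 11 C1 and D1 members tested, 2 were called between SED and D1, this model against the order at Ambient and another with it. Amillepora25026-RA of the D1 and SS pattern was 1.83 higher in SED than in D1 (SE 0.43, adjusted p = 0.0201), at 72.8 ± 41.6 CPM (n = 15) against 28.0 ± 11.3 (n = 6).

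Within SED at Hot these models again differed between libraries of a cross. Amillepora07197-RA held 131.5 to 322 CPM in the lowest-numbered SED library of 6 crosses and 21.8 in that of DRxDR. The later libraries held 7.25 to 24.1 CPM, apart from 185.5 in CUxDR. For Amillepora06399-RA the lowest-numbered libraries held 303 to 432 CPM in the same 6 crosses and 815 in DRxDR, and the later ones 925 to 1678 apart from 341 in CUxDR.

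Between SS and D1 at Hot, which share the same 6 D1 libraries with the preceding contrast, 0.719% of models were called, 0.0859% higher in SS and 0.633% lower. Of the 60 members tested 6 were called, and the 5 that were lower in SS were all SED and SS members. Amillepora07197-RA held 4.83 to 22.5 CPM (median 16.3) in SS, below every D1 library. These SS values rest on 2 to 13 reads per library, against 117 to 351 in D1. The log2 fold change was -5.14 (SE 0.89, edgeR adjusted p = 0.00248), and its size depends on those few reads. Amillepora27841-RA fell by 2.35 (SE 0.50, adjusted p = 0.0168), from 101 ± 30.7 CPM (n = 6) in D1 to 20.3 ± 11.9 (n = 6) in SS, and these ranges did not overlap either (55.8 to 132 and 4.83 to 36.3). At Ambient the same model had held 33.1 ± 25.0 CPM (n = 32) in D1 and 73.6 ± 22.1 (n = 30) in SS. The riser was Amillepora06399-RA, 1.99 higher in SS (SE 0.43, adjusted p = 0.0168). Between SED and SS at Hot edgeR called 0 members and 0% of all models, and DESeq2 called 0 as well. At an unadjusted p under 0.05 there were 14 members. With no low-count filter edgeR did call members here, as counted in the last section, so the 0 depended on the filter.

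These counts rest on few crosses. Without SBxSB, 2 members and 0.33% of all models were called between SED and D1, and 1 member and 0.055% between SS and D1. Without DRxSB, 1 member and 0.156% of models were called between SS and D1. Between SED and D1, 4 members and 1% of models were called without CUxDR, and 3 members and 0.957% without LSxLS. Without the libraries numbered 1 within cross and treatment, 7 members and 1.01% of models were called between SED and D1, and 2 members and 0.163% between SED and SS. Without those numbered 2 there were 3 members and 0.481% between SED and D1, and 3 members and 0.178% between SS and D1. Among late-numbered libraries alone, chosen after the data were seen, 5 members and 0.622% of models were called between SED and D1, and 4 members and 0.264% between SS and D1. Over 16 alternatives Amillepora07197-RA was called between SED and D1 in 11, with a log2 fold change of -5.00 to -1.42, and between SS and D1 in 14 (-6.22 to -4.74). Amillepora06399-RA was called in 14 (0.85 to 2.68) and 13 (1.59 to 2.47), Amillepora25026-RA in 9 (1.42 to 1.96), and Amillepora27841-RA in 12 (-3.59 to -1.69). Amillepora14734-RA was called in 8 of 15 (-2.55 to -1.57).

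Among the C1 and SS members, mean levels of SS at Hot lay above those of D1 in 7 of 22. Within SBxSB it was 12 of 22, from 2 libraries of each treatment, and within DRxSB 6 of 22, from 1 D1 library and 2 of SS. Of the 13 tested, 0 were called in any Hot contrast. Among all models 1.88% were called for SED minus D1, 0.719% for SS minus D1 and 0% for SED minus SS, so 0 of 13 says nothing particular about these members. The median fitted log2 fold change of SED minus SS over these 13 was 0.0036. Amillepora07069-RA held 0 to 8.75 CPM (median 3.11) in SS at Hot, against a median of 17.0 at Ambient, and was at 0 in 5 of 6 D1 and 9 of 15 SED libraries. Amillepora29940-RA was at 0 in 4 of 6 SS libraries at Hot. Neither model passed the filter on low counts among the Hot libraries. Of the 7 C1 and SED and the 3 D1 and SED members tested, 0 were called, beside the same small shares of all models.

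**Figure D4:**
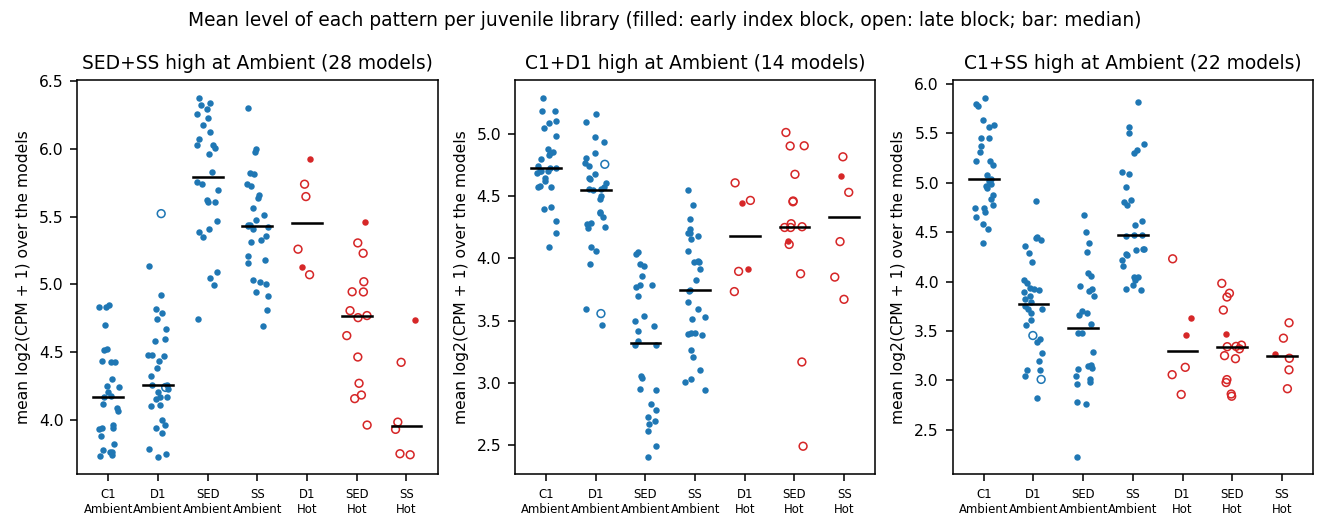
Mean log2(CPM + 1) over the 28, 14 and 22 members of 3 patterns in each juvenile library, by treatment and temperature, with filled points for early and open points for late index numbers and bars for medians. For the SED+SS members the D1 libraries had a median of 4.26 at Ambient and 5.45 at Hot, and the SS libraries of 5.43 and 3.96.

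Set beside Ambient libraries of the same cross and treatment, the mean log2(CPM + 1) over the 28 SED and SS members was higher at Hot in 4 of 4 crosses with D1 (by 0.69 to 1.58). It was lower in 7 of 7 with SED (-1.40 to -0.43) and in 3 of 3 with SS (-1.88 to -0.67). The Ambient side of these differences chose the members as low in D1 and high in SED and SS, so that selection alone moves them in these directions, and nothing is read from their signs. Temperature and index number could be separated in few libraries. The late-numbered Ambient D1 libraries had a mean of 4.24 in CUxDR and 5.52 in DRxSB, against 3.73 to 5.13 in the 30 early-numbered ones. In Amillepora07197-RA they held 220.2 and 672 CPM, above the 207 of the highest early-numbered D1 library, and in Amillepora06399-RA 149 and 206, below the lowest at 291.2. The early-numbered Hot libraries had a mean over the SED and SS members of 5.13 and 5.92 in D1, 4.74 in SS and 5.46 in SED. In Amillepora07197-RA the early Hot D1 libraries held 310.4 and 693 CPM and the early Hot SS library 22.5. With the early-numbered Ambient libraries alone, 76 of the 82 members met the rule with the same high pair. That set leaves out only the late-numbered D1 libraries, so most members were bound to stay, and nothing is read from it.

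The temperature effect common to all treatments was tested in the 69 juvenile libraries, 27 Hot and 42 Ambient, of the 14 combinations of cross and treatment with both. The Ambient libraries are among those that chose the members, and treatments with opposite changes are averaged in it. Selection alone can therefore move a member at Hot, down where its Ambient mean was high and up where it was low. The calls, fold changes and p-values of members are thus a description, and no heat effect is read from them. Of all 9412 models tested 34.2% were called, 17% higher at Hot and 17.2% lower (edgeR's quasi-likelihood test). Of the 70 members tested 36 were called, 6 higher and 30 lower. The lower ones were 15 of 27 SED and SS members, 8 of 16 C1 and SS members and 7 of 12 C1 and SED members, and the higher ones included 3 of 11 C1 and D1 members. Amillepora08798-RA had the largest fall, of 3.53 on the log2 scale (SE 0.52, adjusted p = 2.30e-07). Its mean was 22.0 ± 44.6 CPM (n = 42) at Ambient and 1.74 ± 3.27 (n = 27) at Hot, where all 6 D1 libraries were at 0. Amillepora36398-RA fell by 2.76 (SE 0.45, adjusted p = 1.97e-06) and was lower in 14 of 14 combinations, at 45.0 ± 70.4 CPM against 5.86 ± 7.43. Among risers, Amillepora02878-RA went from 25.4 ± 33.0 to 179 ± 325 CPM, by 2.48 (SE 0.36, adjusted p = 2.69e-07), in 12 of 14 combinations. Amillepora19775-RA rose by 1.39 (SE 0.28, adjusted p = 6.55e-05) from 45.2 ± 66.1 to 94.1 ± 83.6 CPM.

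With the early or late block of index numbers as a further term, 0 members were called, at 0.512% of all models, and 0 members were called among the 16 early-numbered libraries alone, at 1.25%. With the block as a term and without the 2 late Ambient libraries there were 9 members and 4.21% of all models. The fold changes of the named models did not all shrink with the calls. In the fit that took the block as a further term and kept every library, log2 fold changes were -3.40 for Amillepora08798-RA, -2.99 for Amillepora36398-RA, 2.26 for Amillepora02878-RA and 0.74 for Amillepora19775-RA. Apart from those few libraries, temperature and index block cannot be told apart in these counts. Without the libraries numbered 1 there were 20 members and 16.3% of models called, and without those numbered 2 there were 15 and 19.4%.

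In larvae, which received no symbiont treatment, all 82 members were listed and most were lower than in juveniles. Against the mean of the 4 Ambient juvenile groups, the level in Ambient larvae was at least 2-fold lower for 49 members and at least 2-fold higher for 5. Among all models that reached 10 CPM in juveniles these shares were 16.6% and 9.42%. The juvenile means of this comparison are those that chose the members, and in some members they were carried by few libraries. Selection alone can therefore place members lower in larvae, and the counts are a description. Life stage and the 2 separately counted tables cannot be told apart here. All 12 C1 and SED members were on the lower side, with a median of 2.26 CPM over members in Ambient larvae, against 16.3 for the SED and SS members.

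Larval heat was tested on 1 profile for each cross and treatment, the sum of its libraries, with cross as a term. Of 14413 models 41% were called, 21.3% higher at Hot and 19.8% lower. Of 77 members tested 42 were called, 32 higher and 10 lower. The rising members included 10 of 27 SED and SS, 9 of 20 C1 and SS, 7 of 13 C1 and D1 and 6 of 11 C1 and SED members, and 0 of the C1 and SED members fell. Amillepora06876-RA, of the C1 and SED pattern, rose by 3.79 on the log2 scale (SE 0.61, edgeR adjusted p = 2.39e-05), from a mean over crosses of 2.95 ± 4.85 CPM (n = 11) to 30.8 ± 29.8 (n = 10), and was higher in 10 of 10 crosses. Amillepora24682-RA, a C1 and SS member, rose by 3.28 (SE 0.29, adjusted p = 4.94e-09), from 1.27 to 9.61 CPM over the crosses at Ambient to 24.0 to 67.5 at Hot, with no overlap. Amillepora21929-RA, the member nearest the threshold, fell by 2.76 (SE 0.21, adjusted p = 3.55e-10). Its crosses held 88.7 to 149.7 CPM at Ambient and 8.43 to 44.4 at Hot. Amillepora04745-RA fell by 0.92 (SE 0.21, adjusted p = 0.00103), in 9 of 10 crosses.

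Over the exposure itself, Ambient larvae were compared with those taken before it, and the Ambient profiles are shared with the heat test. Of all models 10.4% were called, 2.94% higher after the exposure and 7.46% lower. Of the 77 members 22 were called and all were lower, 15 of them SED and SS members out of 27, and 0 of 20 C1 and SS members. Amillepora07197-RA held 66.4 to 489 CPM in the crosses at Pre, 7.91 to 30.5 at Ambient and 40.5 to 236.9 at Hot. It was lower than at Pre in 11 of 11 crosses (log2 fold change -3.36, SE 0.32, adjusted p = 1.94e-06). Amillepora06876-RA fell by 3.53 (SE 0.61, adjusted p = 4.79e-04), from 40.0 ± 57.5 CPM (n = 11) at Pre.

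**Figure D5:**
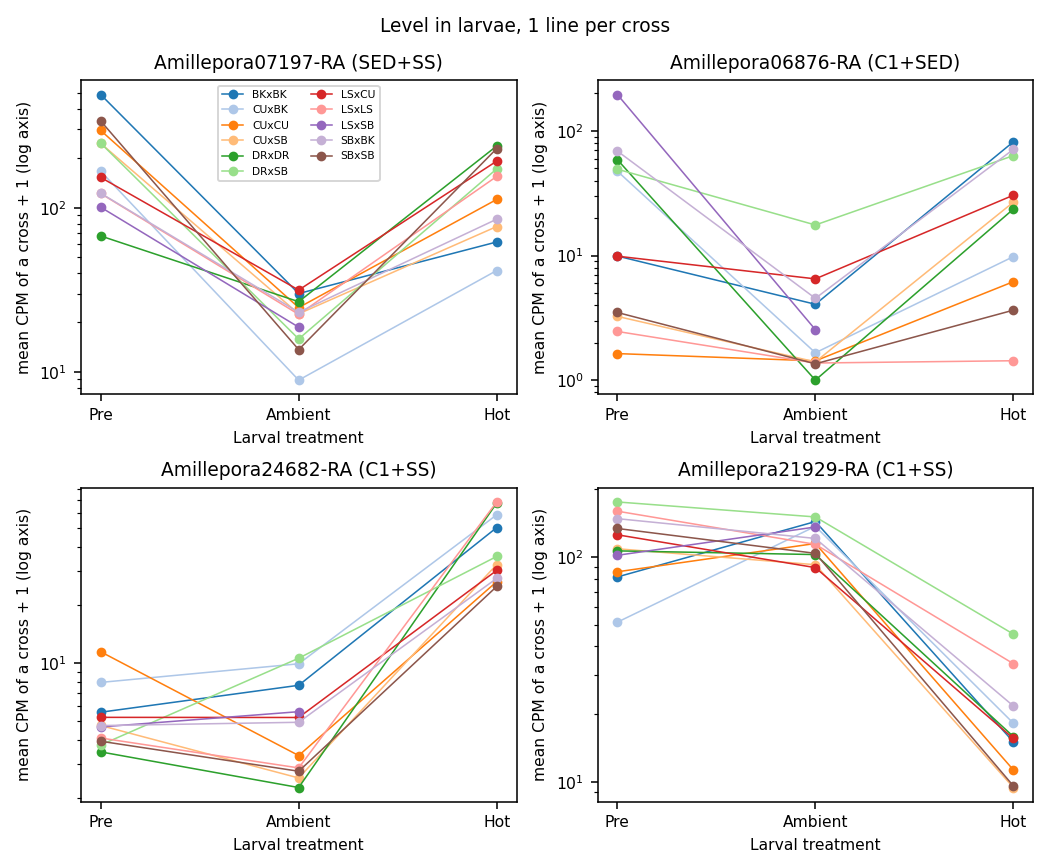
Mean level of 4 members in larvae (CPM + 1, log axes) at Pre, Ambient and Hot, with 1 line per cross. Amillepora07197-RA and Amillepora06876-RA were lowest at Ambient, Amillepora24682-RA rose at Hot from at most 9.61 CPM, and Amillepora21929-RA fell at Hot to at most 44.4 CPM.

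Members of a pattern also varied together to different degrees once cross and treatment means were removed. The values are correlations of residual log2(CPM + 1) over the Ambient juvenile libraries, which share depth and index order, and are given without a test. The median correlation between pairs was 0.218 for the 28 SED and SS members, 0.043 for C1 and SS, 0.026 for C1 and D1 and -0.014 for C1 and SED members, against 0.0057 over all models that reached 10 CPM. The C1 and SED members nevertheless held the closest pairs, with a correlation of 0.920 between Amillepora06876-RA and Amillepora07247-RA and of 0.886 between Amillepora06876-RA and Amillepora07249-RA. Whether reads could be split between near-identical copies of these models is not stated. Amillepora06876-RA was at 0 in 59 of the Ambient libraries and reached 937 CPM in 1 SED library.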

How the data were processed

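Raw counts per gene model were deposited by the authors in a larval and a juvenile table. Per the submitters' processing notes Bowtie2 2.2.9 was used. How reads shared by near-identical models were counted, and whether strand was used, is not stated in the labels. Levels are CPM on each library's total, with a pseudocount of 1 CPM on the log2 scale. Tests used R 4.3.3 with edgeR 4.0.16 (filterByExpr, TMM, quasi-likelihood F-test, Benjamini-Hochberg adjustment over all models passing the filter, threshold 0.05), with DESeq2 1.42.0 as an alternative, and were tested on simulated data. Hot contrasts used 27 libraries with cross as a term. The cross tests used all Ambient juvenile libraries with symbiont treatment as a term. Larval counts were summed per cross and treatment. Symbiont contrasts at Ambient were not tested, since they chose the members.

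The members and lists were chosen with earlier results of these data known. Named are the 2 members with the largest gap of each pattern, the 2 largest significant changes in each direction among models averaging 3 or more in log2 CPM, and the 2 smallest p of each F-test. The edge of the list was to be ranks 100 and 101, and as 82 models met the rule the models on either side of the gap threshold are given. The models in the paragraphs on index order and late-numbered libraries, and the closest pairs, were chosen after their values were seen. Lists by gene function and markers could not be used without names. Replicates in juveniles are libraries, and no label says whether cultures were separate. Juvenile p-values therefore reflect only library-to-library spread, which may be technical. In larvae, where libraries were summed, the p-values reflect the spread between crosses. Comparisons by index number beyond the 2 blocks were added after the data were seen.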

Additional observations from a re-analysis of the deposited data

Results flagged for a closer look

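Among the models named above, 38 groups of 4 to 10 juvenile libraries or larval cross means were screened for a value far from the rest, and 7 had one. The screen flags about 1 in 20 groups of normally distributed values. CPM near 0 are not so distributed, and a few reads can be flagged there, so no excess is read from 7 of 38. All 7 were the highest of 6 Hot libraries. In D1, Amillepora02878-RA reached 308.7 CPM in DRxSB (next 113), Amillepora07249-RA 134.7 in LSxLS (next 11.5), Amillepora07069-RA 2.36 in LSxLS and Amillepora09004-RA 2.39 in SBxSB (others 0). In SS, a library of SBxSB was the highest for Amillepora06399-RA at 1404 CPM (next 918), Amillepora25026-RA at 120.9 (next 29.0) and Amillepora28140-RA at 5.18 (others 0). For at least Amillepora06399-RA and Amillepora25026-RA this was the same library, the only SS library at Hot with an early index number. The causes were not tested.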

How the results depend on the processing

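The rule was met by 62 to 120 models under other scalings, floors, pseudocounts and averages. It was met by 0.323% of all models in the data as reported, but by 0.931% and 1.22% with the lowest or the highest index number of each cross and treatment alone, where 42 and 30 of the 82 members kept their high pair. With medians in place of means 46 did, without 1 replicate number 48 to 80, and without 1 cross 61 to 76. Leaving out 1 replicate number or cross, the rule was met by 75 to 111 models. The calls that follow count members alone, without the share of all models beside them. They show how the counts moved between settings, and nothing is read from them about members as against other models. With no low-count filter, calls numbered 18 for SED against D1 at Hot, 11 for SED against SS, 17 for SS against D1 and 40 for cross by symbiont, for which DESeq2 gave 1. Without the cross term SED against D1 gave 6 and SS against D1 gave 10, and late-numbered libraries alone gave 5 for SED against D1. Leaving out 1 replicate number or cross gave 2 to 12 for SED against D1 (3 to 11 over replicate numbers), 0 to 2 for SED against SS and 1 to 8 for SS against D1 (3 to 6 over replicate numbers). Leaving out a replicate number gave 13 to 25 for cross, 0 for cross by symbiont and 15 to 39 for juvenile heat, which gave 0 with the block of index numbers as a term, 0 in the early block alone and 9 with that term and no late Ambient library. Larval heat gave 40 to 44 and larval time 19 to 25 when a replicate number or cross was left out. Single larval libraries with a replicate block gave 49 and 32, against 47 and 32 without it. The numbers were not taken as pairing samples, since same-numbered deviations correlated at -0.173 to 0.070 in 30 pairs. Changes of calls beyond those from fewer libraries or a wider set of models were not tested for cause. Among single named models 463 alternative values were called or not called as in the main fit, 39 lost the call and 4 gained one. A change of sign between uncalled values counted as no change. An example is Amillepora07249-RA between SED and D1 at Hot, with a log2 fold change of -2.62 to 3.91. Low counts limit most members, 38 of which had a median count under 5.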
